A study of Mus musculus with 6 samples.

Results

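The calmodulin-dependent protein kinases are represented here by 10 genes, taken by name out of the 34289 genes to which the deposited transcripts were summed. They are Camkk1 and Camkk2, which encode the upstream kinases; Camk1, Camk1d and Camk1g, which encode forms of CaMKI; Camk4, which encodes CaMKIV; and Camk2a, Camk2b, Camk2d and Camk2g, which encode the subunits of CaMKII. RNA was sequenced from mouse cortical neurons that had left the cell cycle, taken at E14.5, with 3 control libraries of genotype RP58+/+ and 3 mutant libraries of genotype RP58-/-. RP58, a DNA-binding repressor with zinc fingers, is encoded by Zbtb18. The sources used here do not give how the neurons were isolated or whether each library stands for its own embryo, so p-values cover only library-to-library spread, some of which may be technical. In bulk RNA, fewer cells of a type and less RNA per cell cannot be told apart.

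When calcium enters a neuron it binds calmodulin, and calcium-loaded calmodulin opens the autoinhibited kinases of this family. CaMKK phosphorylates the activation loop of CaMKI and CaMKIV, which act on growing dendrites and axons and, in the nucleus, on factors such as CREB. CaMKII needs no upstream kinase, because its subunits assemble into a ring and phosphorylate each other, and it is best known for its role at mature synapses, where the alpha subunit becomes the most abundant form after birth.

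Total estimated counts ran from 34645505 to 75892649 per library. The libraries were of 2 types, read from the difference between the length of a transcript and its effective length. That difference was 249 bases in control 1, mutant 1 and mutant 2 (fixed-length libraries). It was 134 to 139 bases in control 2, control 3 and mutant 3 (estimated-length libraries). The sources used here do not give the cause of the types. Mitochondrial genes held 3.58% to 5.15% of counts in fixed-length and 16.4% to 17.5% in estimated-length libraries. Transcripts with a count above 0 numbered 47793 to 54509 in fixed-length and 65883 to 69549 in estimated-length libraries. A level in CPM is a library's count after scaling by its TMM-normalized total, and fold changes come from a fit with a term for library type unless stated. Zbtb18 was at 1902, 1587 and 1697 CPM in controls 1 to 3 and at 46.7, 45.7 and 538 CPM in mutants 1 to 3, so every library lay on the side of its label, with mutant 3 keeping the most. The log2 fold change of Zbtb18 was -5.36 within the fixed-length and -1.61 within the estimated-length libraries, where mutant 3 is the only mutant. The list of neuron markers includes Tubb3, Dcx and Map2, and also Neurod6 and Slc17a6, which not all neurons express. It summed to 5928 to 9330 CPM in the controls and 5002 to 8318 CPM in the mutants. Its 10 genes were all tested, with 4 called higher and 3 lower, against 7.92% and 7.01% of all genes tested. Without the term 0 of them were called. Markers of interneurons, of microglia and of the astrocyte and oligodendrocyte lineages summed, each list by itself, to under 6 CPM in each library. Sox10 was at 0 in all 6 and Olig2 in the 3 mutants, and of the 10 tested genes of the 3 lists 3 were called higher, against 7.92% of all genes.

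Of the 10 kinase genes, 9 passed the filter on low counts and 8 of these were called at a Benjamini-Hochberg adjusted p of 0.05 in edgeR's quasi-likelihood test. Camkk1, Camk1 and Camk2d were higher in the mutants, and Camk4, Camk2a, Camk2b, Camk2g and Camk1d were lower. Over all 16985 genes tested, 14.9% were called, 7.92% higher and 7.01% lower. Without the term for library type, 1 of the 9, Camk2d, was called higher and none lower, against 1.59% and 0.765% of all genes (2.36% in all). The median log2 fold change of the 9 was -0.41, beside -0.001 over all genes tested. All 3 mutants lay above all controls for 3 of the 9 and below them for 3, against 8.8% and 6.64% of all genes (15.4% in all). Calls of 4 genes, Camkk1, Camk2d, Camk4 and Camk2a, held whichever library was left out of the fit, against 5.57% of all genes tested.

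**Figure D1:**
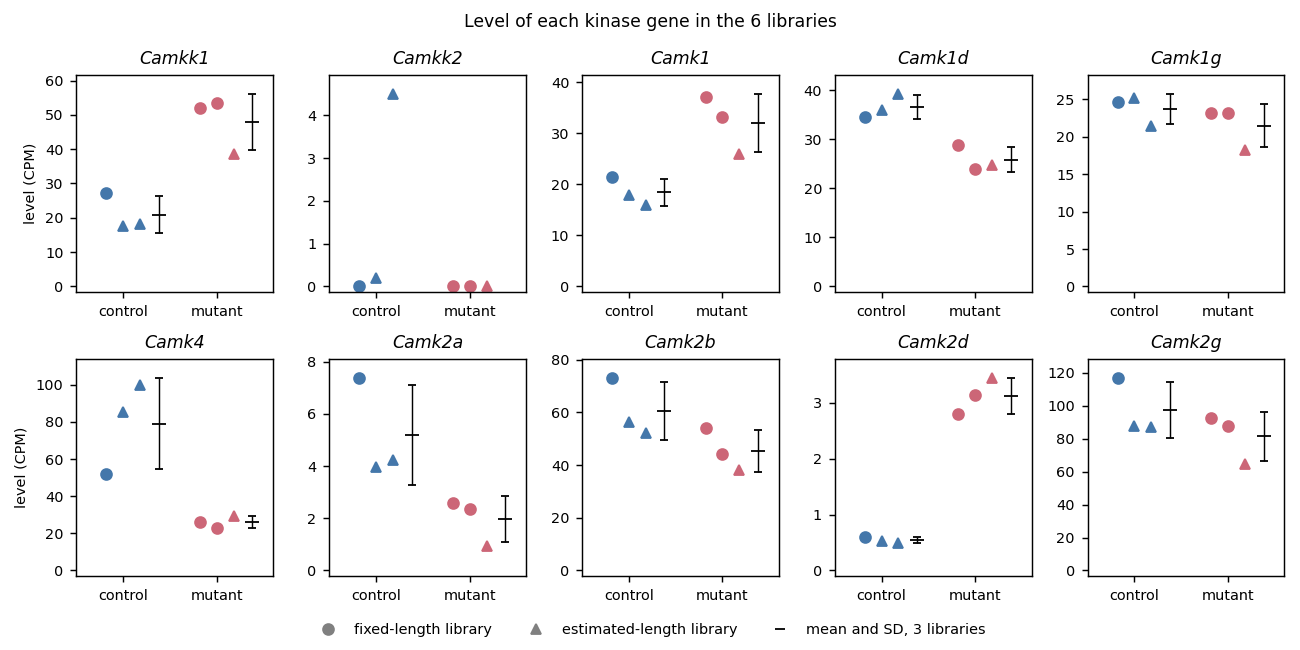
Level of each of the 10 kinase genes in CPM (linear axes, each with its own scale) in control and mutant libraries. Circles are fixed-length and triangles estimated-length libraries, and black bars give the mean and SD of 3 libraries (none is drawn for Camkk2, which was not tested). Camkk1, Camk1 and Camk2d are higher in all 3 mutants than in any control, Camk4, Camk2a and Camk1d are lower, and Camk2b, Camk2g and Camk1g overlap.

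The promoters of the 3 genes that were higher are shown, although binding of RP58 was not tested here. Each runs from 250 bases before to 50 bases after a transcription start annotated by RefSeq (build GRCm38.p6), 5′ to 3′ on the strand of the gene. Capitals mark CAGATG or its reverse complement CATCTG, an E-box that forms the core of the RP58 recognition sequence.
Camkk1, chr11:73018738-73019037, plus strand: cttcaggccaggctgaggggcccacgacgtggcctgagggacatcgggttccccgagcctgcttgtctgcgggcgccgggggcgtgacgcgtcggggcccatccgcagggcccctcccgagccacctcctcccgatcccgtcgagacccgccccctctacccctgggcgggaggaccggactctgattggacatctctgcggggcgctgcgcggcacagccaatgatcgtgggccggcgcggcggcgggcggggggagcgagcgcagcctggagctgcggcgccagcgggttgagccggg
Camk1, chr6:113343873-113344172, minus strand: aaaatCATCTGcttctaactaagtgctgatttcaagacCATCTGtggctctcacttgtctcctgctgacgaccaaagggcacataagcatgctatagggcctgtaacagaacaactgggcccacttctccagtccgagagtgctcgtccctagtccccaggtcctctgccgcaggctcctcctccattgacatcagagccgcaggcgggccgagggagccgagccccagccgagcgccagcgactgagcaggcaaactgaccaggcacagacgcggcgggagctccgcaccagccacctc
Camk2d, chr3:126596701-126597000, plus strand: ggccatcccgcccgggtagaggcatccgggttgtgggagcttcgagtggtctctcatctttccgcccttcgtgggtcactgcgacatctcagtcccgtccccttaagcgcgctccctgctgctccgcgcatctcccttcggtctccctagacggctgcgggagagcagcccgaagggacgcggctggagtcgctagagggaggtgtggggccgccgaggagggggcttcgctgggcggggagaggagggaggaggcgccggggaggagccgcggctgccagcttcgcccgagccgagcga
The window of Camk1 held 2 matches, which begin 245 and 212 bases before the start, both as CATCTG, and the windows of Camkk1 and Camk2d held none. CAGATG, searched on both strands, occurs in 17.2% of the 32851 promoter windows of the table. The longer run ACATCTG, which contains CATCTG, occurs in 4.43% of them, and the cyclic AMP response element TGACGTCA, to which CREB binds, in 1.79%. Neither of these was in any of the 8 windows that the table holds for 7 of the 10 genes. Camk4, Camk2a and Camk2g, all lower in the mutants, have no window and were not searched. Camk1d, 1 of the genes that fell, held a CAGATG match 15 bases before the downstream one of its 2 starts. A match is a description of these letters, and its absence says only that they are not in this window.

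Camkk1, the kinase that activates CaMKI and CaMKIV, was at 27.1, 17.5 and 18.2 CPM in controls 1 to 3 and at 51.9, 53.4 and 38.6 CPM in mutants 1 to 3. All mutants lay above all controls, and within each library type the mutants were about equally far above. Its log2 fold change was 1.04 ± 0.08 (SE, adjusted p = 0.00038 in edgeR), a 2.05-fold rise. It was 0.96 ± 0.12 within the fixed-length and 1.11 ± 0.11 within the estimated-length libraries (adjusted p = 0.00648 and 0.00296, with the spread pooled over both types, because each type holds a genotype with 1 library). Of all genes, 6.05% were called higher and 3.41% lower in the fixed-length comparison (9.46% in all), and 4.6% and 3.32% in the estimated-length one (7.92% in all). Without the term the value was 1.20 ± 0.25 and was not called (adjusted p = 0.0913). The main protein-coding transcript, Camkk1-201, rose by itself (log2 fold change 1.10, adjusted p = 0.0252 over 48353 transcripts tested, of which 1.4% were called). It was the only transcript of the 10 genes that was called.

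Camkk2, the second upstream kinase, had no count in control 1 or in any mutant, and estimated counts of 13.5 and 190.1 in controls 2 and 3. A count of 0 allows up to 0.0607 CPM in a mutant library, with 3 counts as the floor (counting error only). The level of 0.194 CPM in control 2 and 4.50 CPM in control 3 makes this a value of a single library. The deposited tables list 1 of the 11 transcripts that GENCODE annotates for Camkk2, so the level is that of this transcript model and not of the whole gene. Camkk2 did not pass the filter, and no fold is given.

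The CaMKI genes did not move together. Camk1, which encodes the alpha form found throughout the brain, was at 21.4, 17.9 and 16.0 CPM in controls 1 to 3 and at 37.1, 33.2 and 25.9 CPM in mutants 1 to 3. The groups did not overlap, and mutant 3 was the lowest of the mutants, as the controls of its type were the lowest of the controls. The rise was 1.58-fold (log2 fold change 0.66 ± 0.10, adjusted p = 0.00554), with 0.72 within the fixed-length and 0.61 within the estimated-length libraries (adjusted p = 0.0346 and 0.0554). The call was lost without control 1 (adjusted p = 0.0542) and without the term for library type (0.184). Transcript models that are not protein-coding, mostly retained introns, held 3.93% to 5.67% of the counts of Camk1 in fixed-length and 14.7% to 26.4% in estimated-length libraries.

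Camk1d, which encodes the delta form, moved the opposite way. It stood at 34.5, 35.9 and 39.2 CPM in controls 1 to 3 and 28.7, 24.0 and 24.7 CPM in mutants 1 to 3, and the groups did not overlap. It fell by 0.50 ± 0.11 on the log2 scale (adjusted p = 0.0279). This call was lost without control 1, control 2, control 3 or mutant 3 (adjusted p = 0.0968, 0.0913, 0.0958 and 0.182), was not made within either library type (adjusted p = 0.179 and 0.0775), and was absent without the term (0.279). Camk1g, the gamma form, a lipid-anchored kinase known from growing dendrites of cortical neurons, was at 24.6, 25.2 and 21.4 CPM in the controls and 23.1, 23.2 and 18.2 CPM in the mutants. These ranges overlap, and the log2 fold change of -0.22 ± 0.11 was not called (adjusted p = 0.242), which does not show that its level was the same. On the TPM scale, which is per length, the level of Camk1 was 1.43, 0.865 and 0.953 times that of Camk1g in controls 1 to 3 and 2.66, 2.27 and 1.75 times in mutants 1 to 3.

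Camk4, the CaMKK substrate that works mainly in the nucleus and phosphorylates CREB, was among the clearest falls. It was at 52.1, 85.4 and 100 CPM in controls 1 to 3 and at 26.1, 22.9 and 29.3 CPM in mutants 1 to 3. The fixed-length control was the lowest control and still lay well above every mutant. The log2 fold change was -1.38 ± 0.16 (adjusted p = 0.00186), a 2.59-fold fall. It was -1.09 ± 0.15 in the fixed-length and -1.66 ± 0.16 in the estimated-length libraries (adjusted p = 0.00985 and 0.00323), and the test of the difference between the types did not pass (adjusted p = 0.651). That test was passed by none of the 9 kinases and by 0.153% of all genes, Zbtb18 among them. Without the term it was -1.60 ± 0.28, just short of a call (adjusted p = 0.0543). All counts came from 1 protein-coding transcript, Camk4-201, the only listed model of 4 annotated. Camkk1 and Camk4, enzyme and substrate, thus moved in opposite directions. The ratio of Camk4 to Camkk1 in TPM was 0.508, 1.23 and 1.49 in controls 1 to 3 and 0.132, 0.114 and 0.206 in mutants 1 to 3.

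**Figure D2:**
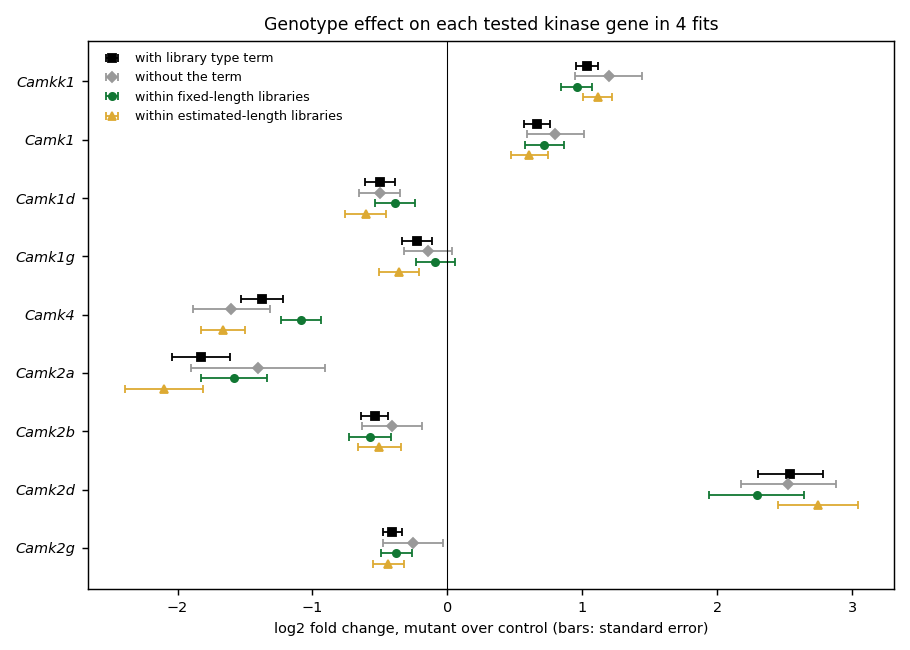
Log2 fold change of mutant over control (horizontal axis, bars are standard errors) for the 9 tested kinase genes in 4 fits: with and without the term for library type, and within each library type. Each gene keeps its sign in all 4 fits, from the rise of Camk2d (2.54 with the term) to the fall of Camk2a (-1.83).

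The 4 CaMKII genes divided between abundant subunits that fell modestly and minor subunits that moved strongly in opposite directions. Per length, Camk2g and Camk2b held nearly all CaMKII transcript among the listed models. Those were 3 of the 17 annotated transcripts for Camk2g, 15 of 15 for Camk2b, 22 of 28 for Camk2d and 7 of 7 for Camk2a. The level and share of Camk2g are thus those of 3 transcript models and not of the whole gene. Camk2g made up 50.9% to 53.9% of the summed CaMKII TPM in the controls and 51.7% to 60.1% in the mutants, and Camk2b 43.2% to 46.4% and 35.2% to 42.1%. TPM values are not compared between library types, since Camk2g alone ran from 37.1 to 44.6 TPM in fixed-length and from 5.73 to 8.67 TPM in estimated-length libraries.

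Camk2g, whose gamma subunit is known to carry calmodulin towards the nucleus, was at 117.0, 88.0 and 87.1 CPM in controls 1 to 3 and 92.5, 87.6 and 64.7 CPM in mutants 1 to 3. The groups overlap, although within each library type every mutant lay below every control. It fell by 0.41 ± 0.07 on the log2 scale (adjusted p = 0.0117). The call was lost without control 1, control 2, control 3 or mutant 3 (adjusted p = 0.107, 0.0714, 0.0622 and 0.110), within either type (0.103 and 0.0883) and without the term (0.997, where the value was -0.25). Camk2b, whose beta subunit binds actin filaments and appears early in development, was at 73.1, 56.3 and 52.0 CPM in the controls and 53.9, 44.3 and 38.2 CPM in the mutants. These ranges also overlap, by the difference between library types. It fell by 0.54 ± 0.10 (adjusted p = 0.0153), a call lost without control 1, control 2 or mutant 3 (adjusted p = 0.165, 0.0664 and 0.0811), within either type (0.0780 and 0.140) and without the term (0.781).

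Camk2a, the alpha subunit of mature forebrain synapses, was scarce at this stage, at 7.38, 3.95 and 4.24 CPM in controls 1 to 3, and fell further, to 2.59, 2.34 and 0.952 CPM in mutants 1 to 3. No mutant reached the lowest control. The log2 fold change was -1.83 ± 0.22 (adjusted p = 0.00222), a 3.55-fold fall, with -1.58 within the fixed-length and -2.10 within the estimated-length libraries (adjusted p = 0.0151 and 0.0106). Without the term it was -1.40 ± 0.50 (adjusted p = 0.391). Behind these levels stood estimated counts of 178.6 to 265.2 in the controls and 47.4 to 133.8 in the mutants.

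Camk2d, whose delta subunit is best known from heart and other tissues outside the brain, showed the largest change of the family. It was at 0.604, 0.521 and 0.498 CPM in controls 1 to 3 and at 2.80, 3.14 and 3.44 CPM in mutants 1 to 3. These values, summed over all transcript models, were close within each genotype and differed little between library types. The models that held the counts did differ between the types in the mutants. The rise was 5.83-fold (log2 fold change 2.54 ± 0.24, adjusted p = 0.000866), 4.90-fold within the fixed-length and 6.72-fold within the estimated-length libraries (adjusted p = 0.0146 and 0.00424). It was also called without the term (2.53 ± 0.35, adjusted p = 0.0255). The counts were small, with estimates of 19.2, 35.1 and 20.7 in the controls and 145.4, 167.9 and 169.6 in the mutants, and were spread over 18 of the 22 listed transcripts, the others having none. In mutants 1 and 2 the protein-coding transcript Camk2d-202 held 105.8 and 82.7 of them, while in mutant 3 it held none. Models that are not protein-coding held 64.2%, 57.6% and 84% of the Camk2d counts in controls 1 to 3 and 16.4%, 22.3% and 69.7% in mutants 1 to 3. With protein-coding transcripts alone, an alternative chosen after the data were seen, the log2 fold change was 3.04 (adjusted p = 0.00621). The subunit genes share similar coding sequences, and kallisto divides reads that fit several of them, so small counts such as these are uncertain.

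**Figure D3:**
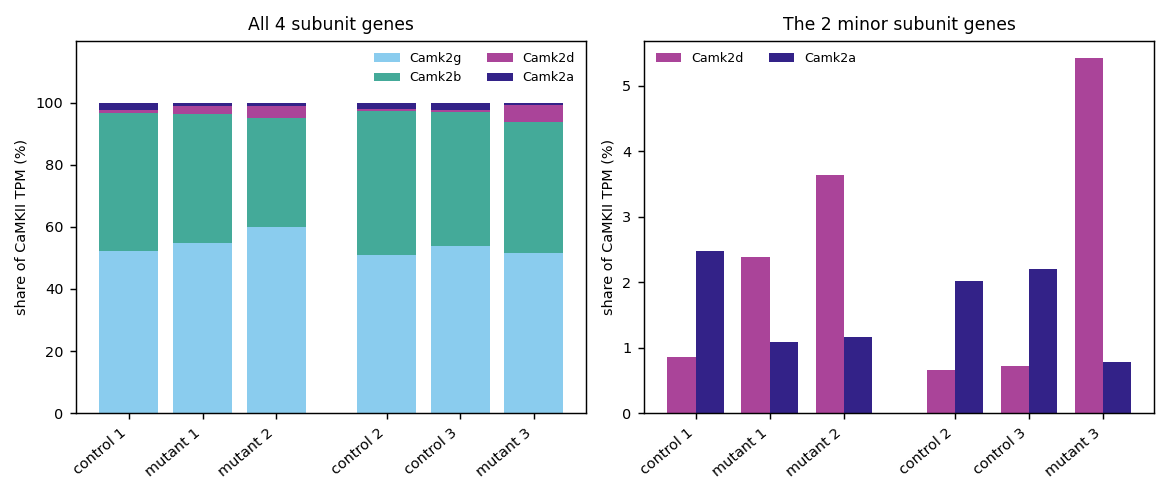
Share of each CaMKII subunit gene in the summed TPM of the 4 genes, in percent, for fixed-length (left 3 bars of each panel) and estimated-length libraries (right 3 bars). TPM is summed over all transcript models, protein-coding or not. The left panel shows all 4 genes and the right panel the minor ones, where Camk2d exceeds Camk2a in every mutant and Camk2a exceeds Camk2d in every control.

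By TPM summed over all transcript models, the order of the minor subunits was inverted. Models that are not protein-coding held 57.6% to 84% of the Camk2d counts in the controls and 16.4% to 69.7% in the mutants. For Camk2a they held at most 1.36%. Shares of protein-coding models alone were not computed. Camk2a held 2.48%, 2.01% and 2.20% of CaMKII TPM in controls 1 to 3 and 1.09%, 1.17% and 0.778% in mutants 1 to 3. Camk2d held 0.850%, 0.663% and 0.719% in the controls and 2.39%, 3.64% and 5.42% in the mutants. Ordered by TPM within a library, Camk2g came first in all libraries except mutant 1, where Camk1 did, with Camk2g next. Camk2b came after Camk2g in the controls. Camkk1 stood at rank 5, 7 and 7 of the 10 genes in controls 1 to 3 and at rank 4, 3 and 4 in mutants 1 to 3. These orders are descriptions, with no test.

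Markers of other cells moved with genotype beside these changes, where 7.92% of all genes tested were called higher and 7.01% lower. Of 7 genes of intermediate progenitors, such as Eomes and Neurog2, 5 were called higher and none lower, and the list summed to 196 to 300.3 CPM in the controls and 503 to 774 CPM in the mutants. Of 6 endothelial and mural genes, 4 were tested and 2 called higher, with sums of 2.51 to 5.54 CPM in the controls and 9.40 to 17.4 CPM in the mutants. Of 9 radial glia genes 3 were called higher and 4 lower, and the list summed to 482 to 718 CPM in the controls and 227 to 276 CPM in the mutants. Of 7 cycling genes 5 were called higher, with sums of 54.0 to 110 CPM in the controls and 69.0 to 113 CPM in the mutants. Without the term for library type, 1 intermediate progenitor gene was called higher, and 3 radial glia genes higher and 1 lower. Of the endothelial, mural and cycling genes 0 were called without it. Of the cycling calls 0 held in all 6 leave-one-out fits. The erythroid list gave 6.61 to 11.1 and 5.89 to 20.4 CPM, with none of 5 called. The part of these cells in the changes of the kinases was not tested.

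Around the kinases, 5 lists of genes that work with them held 79 genes, of which 75 were tested, 10 called higher and 10 lower. That is 26.7% of those tested, beside 14.9% of all genes. Their median log2 fold change was -0.10. Without the term for library type 2 were called in each direction, against 1.59% higher and 0.765% lower of all genes. The medians of the regulators and of calmodulin and its binders were then 0.23 and 0.26 in place of -0.15 and 0.03. Over the 5 lists together the median without the term was 0.12, and for the calcium-induced genes it was -0.71 in place of -0.34.

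Among inhibitors, phosphatases and anchors, 2 of 17 were higher and 1 lower, against 7.92% and 7.01% of all genes. The median log2 fold change was -0.15. Camk2n1, a small protein that inhibits CaMKII directly, was at 23.1, 26.5 and 20.8 CPM in controls 1 to 3 and at 119, 165 and 59.3 CPM in mutants 1 to 3. All mutants lay above all controls, with mutant 3 the lowest of them. The log2 fold change was 1.96 ± 0.32 (adjusted p = 0.00869, and 0.0508 without the term). It was 1.34 without control 1 and 2.62 without mutant 3. Ppm1e, a phosphatase that removes the activating phosphate from CaM kinases, was at 162, 282 and 282 CPM in the controls and 77.3, 63.6 and 111 CPM in the mutants, and fell by 1.27 ± 0.10 (adjusted p = 0.000506, and 0.107 without the term). Both calls held whichever library was left out. Actn1, an actin crosslinker that can bind CaMKII, was higher by 0.51 ± 0.10 (adjusted p = 0.0176), a call held in 3 of the 6 leave-one-out fits (adjusted p up to 0.151). The most abundant gene of the list, Ywhag, a 14-3-3 protein, was not called (log2 fold change -0.25, adjusted p = 0.219).

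Among relatives of the kinases, 2 of 12 tested were higher and 1 lower, against 7.92% and 7.01% of all genes. The median was -0.04. Camkv, a kinase-like protein of synapses that lacks catalytic activity, was at 61.3, 55.5 and 50.1 CPM in the controls and 34.9, 36.5 and 22.2 CPM in the mutants, without overlap, and fell by 1.01 ± 0.13 (adjusted p = 0.00265, and 0.231 without the term). Mylk, the myosin light chain kinase, also activated by calmodulin and abundant in smooth muscle, was at 0.0318, 0.402 and 0.616 CPM in controls 1 to 3 and 3.36, 2.64 and 19.7 CPM in mutants 1 to 3 (log2 fold change 5.45 ± 0.32, adjusted p = 0.000125, and 0.218 without the term). Mutant 3 stood far above the other mutants, and without it the log2 fold change was 6.45. That value sets mutants 1 and 2 against control 1, the only control of their type. Control counts of Mylk were 1, 26.7 and 26.4, and control 1 lay under the floor of 3 counts (0.0954 CPM). Eef2k, which phosphorylates elongation factor eEF2, was higher by 0.40 ± 0.08 (adjusted p = 0.0215), a call held in 2 of the 6 leave-one-out fits (adjusted p up to 0.183). Dclk1, a microtubule-binding kinase and the most abundant of the list, was not called (log2 fold change -0.17, adjusted p = 0.239).

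Calm2 and Calm3, which encode calmodulin and are named after their values were seen, were not called (log2 fold changes -0.29 and -0.14, adjusted p = 0.0690 and 0.416). Of the 8 tested genes of calmodulin and its binders, 2 were higher and 1 lower, against 7.92% and 7.01% of all genes. The median was 0.03. Gap43, a growth cone protein that binds calmodulin when calcium is low, was at 558, 211 and 176 CPM in the controls and 279, 253 and 83.9 CPM in the mutants. Its groups overlap, and within each type the mutants were lower, with a fall of 1.14 ± 0.11 (adjusted p = 0.000931, and 0.997 without the term). Marcks, a membrane protein that calmodulin displaces, was higher by 0.57 ± 0.10 (adjusted p = 0.0117), and Nrgn, a calmodulin-binding protein of dendrites, rose from under 0.382 CPM to between 0.972 and 1.99 CPM (log2 fold change 2.20 ± 0.41, adjusted p = 0.0150). Each of these calls held in 2 of the 6 leave-one-out fits (adjusted p up to 0.0888 and 0.133). The control counts of Nrgn were 12, 14 and 6. Marcksl1, the most abundant of the list, was not called (-0.16, adjusted p = 0.345).

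Of 26 genes for substrates, 4 were higher and 3 lower, against 7.92% and 7.01% of all genes. The median was -0.01. Hdac7, a class IIa histone deacetylase that CaM kinases drive out of the nucleus, was at 20.6, 21.3 and 23.5 CPM in the controls and 56.6, 71.8 and 54.8 CPM in the mutants and rose by 1.46 ± 0.14 (adjusted p = 0.000837, and 0.0159 without the term). Mef2c, a transcription factor held in check by such deacetylases, was at 7.79, 13.8 and 13.7 CPM in the controls and 1.91, 2.71 and 3.10 CPM in the mutants and fell by 1.95 ± 0.21 (adjusted p = 0.00147). Grin2b, the NMDA receptor subunit to which CaMKII binds, was at 6.01, 121 and 124 CPM in controls 1 to 3 and 3.53, 3.09 and 59.1 CPM in mutants 1 to 3. Its level was set mainly by library type, with a fall of 0.97 ± 0.10 within types (adjusted p = 0.00102) and no call without the term (0.997). The other called substrates, chosen after their values were seen, were Mef2a (0.84), Crtc3 (0.96) and Tiam1 (0.56), which were higher, and Hdac9 (-1.19), which was lower. The calls of Hdac9 and Tiam1 held in 4 and 2 of the 6 leave-one-out fits (adjusted p up to 0.160 and 0.265). Stmn1, a microtubule regulator and the most abundant of the list, was not called (-0.25, adjusted p = 0.215), nor was Creb1 (0.19, adjusted p = 0.282), also chosen after its values were seen.

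Genes that calcium signals are known to induce were lower where they were called. Of 12 tested, 4 fell and none rose, against 7.01% lower and 7.92% higher of all genes. The median was -0.34. Without the term 1 was called lower and none higher, against 0.765% and 1.59% of all genes. Nr4a3, an orphan nuclear receptor, was at 111, 124 and 132 CPM in the controls and 18.9, 19.0 and 26.3 CPM in the mutants and fell by 2.42 ± 0.09 (adjusted p = 3.4e-05, and 0.00516 without the term). Fos and Npas4, activity-regulated transcription factors, fell by 1.02 ± 0.24 and 1.77 ± 0.43 (adjusted p = 0.0342 and 0.0401), calls that held in 2 of the 6 leave-one-out fits (adjusted p up to 0.284 and 0.181). Neither was called without the term (adjusted p = 0.569 and 0.307). Fos overlapped between groups, at 13.9 to 24.2 CPM in the controls and 7.73 to 14.3 CPM in the mutants. Counts of Npas4 were 35 to 115 in the controls and 13 to 34 in the mutants. For Npas4 the value was -2.59 without control 1 and -1.04 without mutant 3. Homer1, a postsynaptic scaffold gene and the most abundant of the list, fell by 0.30 ± 0.08 (adjusted p = 0.0463), called in 1 of the 6 (up to 0.269). The 8 tested genes that were not called ranged from Fosb (-1.60 ± 0.64, adjusted p = 0.155) to Egr3 (0.81 ± 0.55, adjusted p = 0.384), both named after their values were seen.

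**Figure D4:**
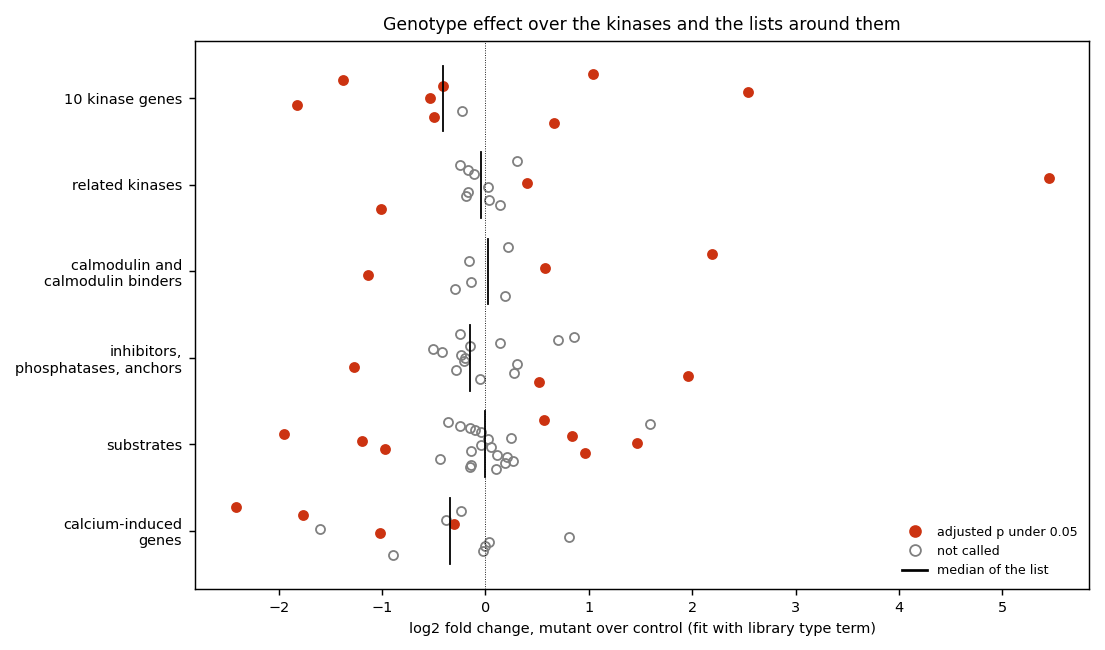
Log2 fold change of mutant over control, in the fit with the library type term, for the tested kinase genes and the tested genes of the 5 lists around them. Each point is a gene, filled red where the adjusted p was under 0.05, and black lines are medians, which run from -0.41 for the kinases to 0.03 for calmodulin and its binders. The red points of the calcium-induced genes all lie below 0, and the point at 5.45 is Mylk.

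The genes whose pattern over the 6 libraries was nearest to that of Camkk1, the member with the smallest p, were Elmod1, Ttf2 and Abcg1. Nearness was the Euclidean distance between log2 CPM values centred within library type, over 11147 protein-coding genes with a mean of at least 2 CPM, and was 0.115, 0.118 and 0.130. Elmod1 was at 132, 72.5 and 75.7 CPM in controls 1 to 3 and 258, 242 and 153 CPM in mutants 1 to 3. Ttf2 was at 4.88 to 5.27 CPM in the controls and 9.92 to 11.1 CPM in the mutants, and Abcg1 at 14.6 to 17.8 and 27.4 to 35.5 CPM.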

How the data were processed

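Each deposited table lists 97251 transcripts. Per the file headers, the authors deposited for each an estimated count, not normalized, and a TPM value, scaled by effective length and total. Other deposited columns give length and effective length. Per the submitters' processing notes the tools were FastQC and kallisto and the build mm9, with versions not given in the sources used here. Here 84637 transcripts (87.0%) were joined to 34289 GENCODE M21 genes. The rest held 6.85% to 8.58% of counts per library. Counts were summed and rounded.

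Genotypes were compared over all 6 libraries with edgeR 4.0.16 in R 4.3.3 (quasi-likelihood test, TMM, filterByExpr, prior count 2). Library type was a term, since the common biological coefficient of variation was 0.186 with it and 0.701 without. SE is the log2 fold change divided by the square root of F. Benjamini-Hochberg adjustment ran over all 16985 genes. DESeq2 1.42.0 and limma 3.58.1 (on log2 of TPM + 1) served as alternatives. Transcripts were tested alike. The procedure was tested on simulated data of 16623 genes. It recovered 58% of 50 raised 2-fold, 86% of 50 raised 4-fold, 56% of 50 lowered 2-fold and 72% of 50 lowered 4-fold. Of the simulated calls 4.23% were false. No other simulated gene differed by genotype, and the spread of each gene followed the trend over all genes. The 4.23% is thus not the share of false calls among those reported here.

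The members and lists were chosen with earlier results of these data known. The rule for named genes, with exceptions marked in the text, took all 10 kinases, up to 3 called genes with the smallest p and the most abundant gene of each list, and the 3 nearest patterns to the kinase with the smallest p.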

Additional observations from a re-analysis of the deposited data

How the results depend on the processing

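All 9 tested kinase genes kept their direction in each of the 14 alternative fits. With RLE size factors, protein-coding nuclear genes only, at least 1 CPM in 3 libraries, DESeq2, or protein-coding transcripts only (the last added after the data were seen), 3 kinases were called higher and 5 lower, as in the reported fit. Without the term for library type, 270 genes were called higher and 130 lower instead of 1346 and 1191, kinases went from 3 and 5 to 1 and 0, and the 5 lists from 10 and 10 to 2 and 2. The share of calls that were higher was 53.1% with the term and 67.5% without. Limma on log2(TPM + 1) called 315 genes higher and 265 lower, and 1 kinase in each direction, Camkk1 and Camk4. The pseudocount shrinks changes at low TPM, with 0.67 for Camk2d. DESeq2 called 1755 genes higher and 2284 lower. Without a filter, Camkk2 was also called lower (adjusted p = 0.00275), on counts mainly of control 3. With 1 library left out, 785 to 1589 genes were called higher and 509 to 1445 lower. Kinases called higher were 2 to 3. Kinases called lower were 2 to 5, with 2 without control 1, control 2 or mutant 3 and 3 without control 3. The 5 lists gave 5 to 13 higher and 6 to 15 lower. No paired analysis was possible because the labels carry no replicate numbers, and those used here follow the order of deposition and tie no control to a mutant. Low counts limit Camk2d, with at most 35.1 in a control library. They also limit Mylk and Nrgn, with at most 26.7 and 14 in a control library.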
